A study of Mus musculus with 18 samples.

Results

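The genes for the proteins of the cytosolic ribosome were followed through 3 assays of mouse liver. A gene of the RNA-seq table was counted as a member when its symbol had the form of a large (Rpl, Rplp) or small (Rps, Rpsa) subunit protein followed by a number, leaving out the Rps6k kinases and pseudogenes marked -ps. This rule used symbols alone, and it gave 84 of the 15572 genes in the table, 51 for the large subunit and 33 for the small subunit. They were listed with 113 RefSeq transcripts, and 67 of the 84 had a single transcript. Rps4l was the only member that RefSeq does not list as protein coding.

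All mice were C57BL/6J. RNA-seq compared WT refed with JMJD1C-LKO refed liver, with 2 libraries of pooled RNA in each group. The ATAC-seq livers were WT fasted, WT refed or labelled JMJD1C-LKO refed, and the H3K9me2 ChIP-seq livers were WT in both feeding states, with 2 livers in each group. JMJD1C-LKO mice carried floxed Jmjd1c alleles and Cre under the albumin promoter, which is active in hepatocytes, and WT mice were their littermates, so that other liver cells of the JMJD1C-LKO mice should keep the gene. The methods give an age of about 3 months unless stated otherwise. The labels give every sample chow for 6 to 8 weeks and an overnight fast with 6 h of high carbohydrate refeeding, so the fasted state comes from sample titles, summit names and the reporting summary, and the methods state 8 to 16 h of feeding.

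RNA-seq libraries held between 51265128 and 54400509 counts. Jmjd1c itself, the targeted gene, was measured at 21.99 and 22.77 CPM (a count scaled to the size of its library) in the WT libraries and at 20.03 and 20.48 CPM in the libraries labelled JMJD1C-LKO. Its log2 fold change of -0.14 ± 0.08 (SE) did not pass the test (edgeR quasi-likelihood, adjusted p = 0.233), and its counts cover whole transcripts, so they do not show whether the floxed exons were lost. The libraries are therefore called by their labels. Hepatocyte markers such as Alb were abundant in all 4 libraries, with a summed level of 99900 to 113000 CPM for 6 genes.

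A ribosome has a large subunit, which forms peptide bonds and holds the exit tunnel, and a small subunit, which reads the mRNA. Most of their proteins are needed in equal number, and surplus copies are degraded. The mRNAs of vertebrate ribosomal proteins start with a C followed by a run of pyrimidines, the 5′ terminal oligopyrimidine (TOP) motif, through which mTOR complex 1 controls their translation after feeding. JMJD1C is a histone demethylase of the Jumonji family, and H3K9me2, the mark measured here, is generally found on repressed chromatin.

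Starts of 9 members are shown. They cover genes that were lower in RNA-seq (Rpl14, Rps15a, Rps26, Rpl7a), starts with ATAC-seq summits (Rpl27a, Rps23) and the gene of the S6 kinase substrate Rps6. They also cover stalk genes whose mRNA change did not pass the test (Rplp0, Rplp2). Each line holds 10 bases before and 20 bases from the RefSeq start in GRCm38.p6, written 5′ to 3′ along the gene, with the longest run of C and T that begins with C within 10 bases of the start in capitals where it has at least 5 bases.
Rpl14: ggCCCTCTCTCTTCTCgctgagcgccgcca
Rps15a: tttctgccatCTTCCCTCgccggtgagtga
Rps26: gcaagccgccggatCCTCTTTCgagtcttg
Rpl7a: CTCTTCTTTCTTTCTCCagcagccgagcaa
Rpl27a: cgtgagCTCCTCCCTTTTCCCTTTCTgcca
Rps23: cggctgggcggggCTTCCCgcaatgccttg
Rps6: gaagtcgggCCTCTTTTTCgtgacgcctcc
Rplp0: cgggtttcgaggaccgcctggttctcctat
Rplp2: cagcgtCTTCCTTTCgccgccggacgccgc
The windows lie at chr9:120571507-120571536 (Rpl14, plus strand), chr7:118116128-118116157 (Rps15a, minus), chr10:128626487-128626516 (Rps26, minus), chr2:26910797-26910826 (Rpl7a, plus), chr7:109519185-109519214 (Rpl27a, plus), chr13:90923112-90923141 (Rps23, plus), chr4:86857348-86857377 (Rps6, minus), chr5:115559457-115559486 (Rplp0, plus) and chr7:141447641-141447670 (Rplp2, plus). The run was 20 bases long at Rpl27a, the longest among the members in the RefSeq promoter table, 17 at Rpl7a and 14 at Rpl14, and Rplp0 had none of 5 or more within 10 bases of its start.

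The RefSeq promoter table, with 250 bases before and 50 bases from each start, held 63 of the 84 members. A C at an annotated start followed by at least 4 C or T was found in 14 of the 63 (22.2%) and in 3.01% of the 27025 genes in the table. Allowing the run to begin up to 10 bases away, 38 members (60.3%) had such a run, against 34.4% of all genes. The median longest run was 6 bases in the members and 4 in all genes. Motifs were searched on both strands, and none of the 5 contains another. CCGGAA, the core bound by ETS factors such as GABP, was in 34 of the 63 members and in 16.7% of all genes. GGGCGG, the SP1 box, was in 39 members (61.9%) against 38.2%, and AAGATGGC, the YY1 core, in 6 (9.52%) against 3.19%. CACGTG, the E-box bound by USF-1, was in 6 members (9.52%) and in 8.09% of all genes, and TATAAA was in 8 (12.7%) against 15.7%. The members also stood out as hosts of snoRNAs, the guides of rRNA modification: 30 of 84 (35.7%) held an annotated snoRNA gene within their bounds, 58 such genes in all, against 1.03% of protein-coding genes.

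The first comparison asked how the ribosomal protein mRNAs differed between refed WT livers and refed livers labelled JMJD1C-LKO. Of 83 members tested, 55 were lower in the libraries labelled JMJD1C-LKO and 0 were higher at an adjusted p under 0.05 (edgeR quasi-likelihood test), and 0 were higher at an unadjusted p under 0.05. Across all 14151 genes tested, 13.4% were lower and 14.6% higher. DESeq2 called 58 members lower and 0 higher. The median log2 fold change of the members was -0.28, a median change of -17.9%, while the median over all genes was 0.006. Of the large subunit genes 34 of 50 were lower and of the small subunit genes 21 of 33, and the median was -0.28 in each. The members held 2.40% and 2.45% of all counts in the WT libraries and 1.92% and 2.01% in those labelled JMJD1C-LKO. Within the members, the large subunit genes took 59.3% to 59.8% of the counts in all 4 libraries.

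In 73 of the 83 members (88.0%) both libraries labelled JMJD1C-LKO lay below both WT libraries, as did 33.8% of all genes. The reverse order was seen in 1 member, Rplp1, and in 33.7% of all genes. The median log2 ratio of the members lay between -0.27 and -0.30 in each of the 4 pairings of a library labelled JMJD1C-LKO with a WT library, and it was 0.003 between the WT libraries and -0.01 between the other pair. The size of the difference therefore hardly depended on the library, but the number of calls did. Without WT replicate 1 only 3 members (Rps15a and Rps26 among them) were called lower, and without WT replicate 2 only 6 (Rpl14, Rpl23a, Rpl34, Rpl7a and Rps27l among them), with 476 and 408 lower genes in the whole table against 1892 with all libraries. When single RefSeq transcripts were tested in place of genes, 8 of 108 member transcripts were lower, in 8 members, and 0 were higher. Of all 22296 transcripts tested, 1.38% were lower and 2.12% higher.

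**Figure D1:**
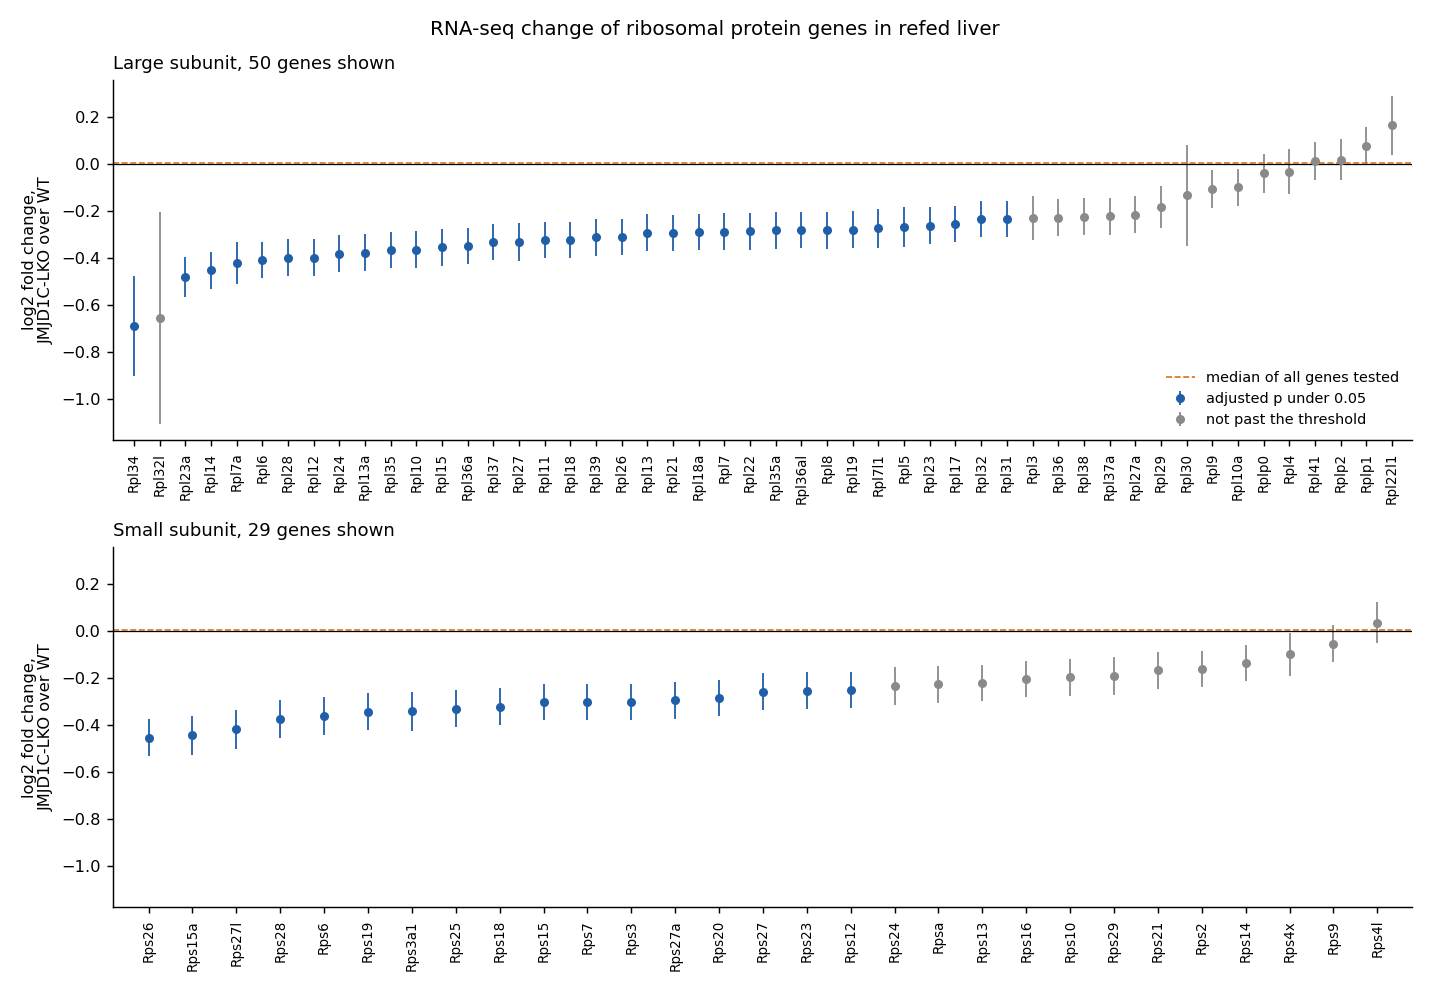
Log2 fold change of 79 of the 83 tested ribosomal protein genes (libraries labelled JMJD1C-LKO over WT, 2 against 2; y axis) ordered by size along the x axis, large subunit above and small subunit below, with bars for the SE. Blue points passed an adjusted p of 0.05 and grey points did not. Both subunits lie mostly between -0.5 and 0 with a median of -0.28, and the stalk genes Rplp0, Rplp1 and Rplp2 lie near 0.

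Of the members with the smallest p, 6 are given here, with changes from -24.1% to -28.4%. Rpl14, a protein of the large subunit, was at 252 and 239 CPM in WT and at 176 and 183 CPM in the libraries labelled JMJD1C-LKO. The groups did not overlap, and its log2 fold change of -0.45 ± 0.08 (SE) had an adjusted p of 0.00325 (edgeR). Rps26, which touches the mRNA at the exit channel of the small subunit, went from 312 and 326 CPM to 239 and 228 CPM, the same log2 change of -0.45 ± 0.08. Rpl23a, at the rim of the exit tunnel where the signal recognition particle docks, went from 234 and 221 CPM to 172 and 154 CPM (-0.48 ± 0.09). For each of these genes the gap between the groups was wider than that between the libraries of a group. The genes were picked by p from the same libraries, so this follows from the choice and is no separate support.

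Rps15a, an rRNA-binding protein of the small subunit, was at 107 and 112 CPM in WT and at 84.4 and 76.5 CPM in the libraries labelled JMJD1C-LKO. Rpl6 stood at 470.1 and 465 CPM against 356 and 349 CPM. Rpl12, which joins the stalk base to the rRNA, was at 304.7 and 299.7 CPM in WT and at 232 and 227 CPM in the other group. None of these 3 genes, also picked by p, had overlapping groups. Their log2 fold changes were -0.44, -0.41 and -0.40, and their adjusted p lay between 0.00454 and 0.00521 (edgeR).

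The members were next taken by function, in short lists that were not tested against the other members. Of all members tested 66.3% were lower, against 13.4% of all genes tested. Rpl5 and Rpl11 carry the 5S rRNA into the large subunit and, when free, bind the p53 regulator Mdm2. Rpl5 was at 384 and 424 CPM in WT and at 336 and 335 CPM in the libraries labelled JMJD1C-LKO, a log2 fold change of -0.27 ± 0.08 (edgeR adjusted p = 0.0395). Rpl11 went from 300.9 and 295.5 CPM to 239 and 238 CPM (-0.32 ± 0.08, edgeR adjusted p = 0.0132). Of 9 proteins that line the exit tunnel or its rim, 8 were lower with a median of -0.29. The exception was Rpl4, whose loop forms the narrowest part of the tunnel, at 540.3 and 638.5 CPM in WT and 587 and 567 CPM in the other group. At the decoding site Rps15, Rps23 and Rps27a were all lower, with log2 fold changes from -0.25 to -0.30. Rps27a, which is made as a fusion with ubiquitin, was at 286 and 278 CPM against 232 and 229 CPM.

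Of 4 proteins at the mRNA exit, 3 were lower (Rps26 and Rps28 among them), and of 3 at the mRNA entry, 1 was (Rps3). Among all members tested the share lower was 66.3%, and these lists were not tested against it. Near the peptidyl transferase centre Rpl8 and Rpl10 were lower, and Rpl3 missed the threshold. Rps6, the protein phosphorylated by S6 kinase when mTOR is active, was at 496 and 522 CPM in WT and at 409.8 and 383 CPM in the libraries labelled JMJD1C-LKO, with a log2 fold change of -0.36 ± 0.08 (edgeR adjusted p = 0.0112). Its groups did not overlap.

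The P stalk draws the GTPase elongation factors to the ribosome, with Rplp0 as its base and Rplp1 and Rplp2 as its arms. Rplp0 was at 439 and 481 CPM in WT and at 448 and 449 CPM in the libraries labelled JMJD1C-LKO, a log2 fold change of -0.04 ± 0.08. Rplp1 was at 412 and 407 CPM in WT and slightly above both in the other group, at 419.5 and 445 CPM (0.08 ± 0.08). Rplp2 was at 106 and 115 CPM against 106 and 118 CPM (0.02 ± 0.09). None of the 3 passed the test, with adjusted p from 0.505 to 0.894 (edgeR), and the sign of Rplp2 turned with total count scaling (-0.02). Their intervals and those of the lower members were not compared by a test. Rpl12, bound beside them, was among the lower genes above, so the stalk list of 4 had a median of -0.009.

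**Figure D2:**
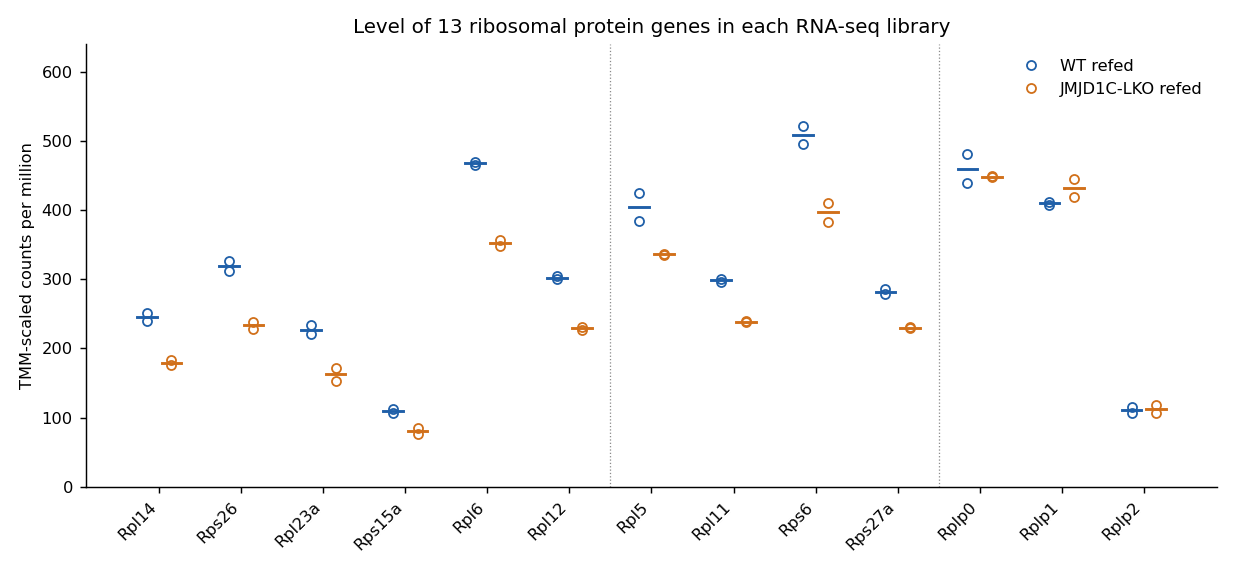
TMM-scaled CPM (y axis, from 0) of 13 ribosomal protein genes in each RNA-seq library, WT refed in blue and libraries labelled JMJD1C-LKO refed in orange, with a bar for the mean of 2. The 6 genes left of the first dotted line were picked by smallest p in these libraries, so their non-overlapping groups follow from the choice. In the 4 in the middle both libraries labelled JMJD1C-LKO lie below both WT libraries, as in 88.0% of the members and 33.8% of all genes tested. Rplp0, Rplp1 and Rplp2 differ by less than 10% between the group means.

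Levels differed far more between members than between groups. Per kilobase of transcript, the median member stood at 348 CPM per kb over the 4 libraries. The highest levels were those of Rplp1 (870 to 951 CPM per kb), Rps29 (787 to 947) and Rpl28 (746 to 986). Rpl28 was lower in the libraries labelled JMJD1C-LKO, with 486 and 489 CPM against 370.2 and 370.0 CPM (log2 fold change -0.40 ± 0.08), whereas Rps29, at 369 and 350.1 CPM against 307 and 324 CPM, missed the threshold (-0.19 ± 0.08, edgeR adjusted p = 0.112). The lowest levels among tested members were those of Rpl32l (0.449 to 0.808 CPM per kb), Rpl30 (4.97 to 6.64) and Rpl34 (8.20 to 19.1).

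Rpl30 had 140 to 188 counts per library and Rpl34 250 to 531, while Rpl10 had 26422 to 35562. RefSeq annotates 301 pseudogenes described by the name of a ribosomal protein, and reads shared with near-identical copies may have been assigned elsewhere by the counting, so single low values are uncertain. Rpl34 had the largest drop of any called member, from 10.2 and 6.86 CPM to 6.09 and 4.54 CPM, but its log2 fold change of -0.69 carried an SE of 0.21 and did not pass the test without WT replicate 1 (-0.37) or without JMJD1C-LKO replicate 2 (-0.49). Rpl30 (-0.13 ± 0.22) and Rpl32l (-0.65 ± 0.45), which had 13 to 25 counts per library, did not pass the test. The rank correlation between level per kb and log2 fold change was -0.02 over the 83 members, and Pearson's r on the log2 level was 0.17, with all points taken from the same 4 libraries.

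Some ribosomal proteins have a second gene copy, often with a narrower use. Rps27l, induced by p53, stood at 386 to 549 CPM per kb and Rps27 at 372 to 467, and both were lower with log2 fold changes of -0.42 ± 0.08 and -0.26 ± 0.08, while the difference between these changes was not tested. Rpl36a stood at 247 to 323 CPM per kb and Rpl36al at 323 to 403, and both were lower (-0.35 and -0.28). Rpl7 stood at 392 to 499 CPM per kb and Rpl7l1 at 21.9 to 28.5, and both were lower again (-0.29 and -0.27). Rpl22 was lower and Rpl22l1 did not pass the test: Rpl22 was at 178.2 and 189.8 CPM in WT and 154 and 148 CPM in the libraries labelled JMJD1C-LKO (-0.29 ± 0.08), while Rpl22l1 was at 23.3 and 17.6 CPM against 23.4 and 22.5 CPM (0.17 ± 0.12, edgeR adjusted p = 0.356). The difference for Rpl22l1 turned to -0.03 without WT replicate 2.

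Rpl3l, the muscle form of Rpl3, had 3 to 13 counts per library and was left out of the test by the filter on low counts. Rpl3 was at 249.9 and 286 CPM in WT and at 238 and 219 CPM in the other group (-0.23 ± 0.09, edgeR adjusted p = 0.094). Rps4x was at 251 and 291 CPM against 255 and 251 CPM (-0.10 ± 0.09), and its noncoding relative Rps4l at 28.6 and 31.5 CPM against 31.7 and 29.97 CPM (0.04 ± 0.09). The groups of both genes overlapped. Of the remaining pair members, Rpl10 was lower (-0.36 ± 0.08) and so was Rpl39 (-0.31 ± 0.08).

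Some ribosomal proteins have symbols that fall outside the rule. Rack1, a scaffold on the small subunit, was lower (347 and 355 CPM in WT, 284 and 296 CPM in the libraries labelled JMJD1C-LKO, log2 fold change -0.28 ± 0.08). Fau, made as a fusion with a ubiquitin-like protein, did not pass the test (-0.05 ± 0.08).

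Ribosome biogenesis factors process the rRNA and assemble the subunits. Of 120 tested, 82 were lower (68.3%, against 13.4% of all genes tested) and 0 higher, with a median log2 fold change of -0.43. Without WT replicate 1 the number fell to 41 and without WT replicate 2 to 33. Ppan, a large subunit assembly factor, was at 39.7 and 42.3 CPM in WT and at 15.2 and 16.1 CPM in the libraries labelled JMJD1C-LKO (-1.39 ± 0.09, edgeR adjusted p = 2.3e-05). Gnl3, also known as nucleostemin, went from 66.4 and 63.4 CPM to 29.3 and 26.7 CPM (-1.21 ± 0.08). Nop56 and Nop58, the core of box C/D snoRNPs that use snoRNAs like those held by the members, had log2 fold changes of -1.16 and -1.02. Rrn3, which lets RNA polymerase I start, had a log2 fold change of -0.77 ± 0.09. Ubtf, the polymerase I factor on the rDNA, did not pass the test (-0.02 ± 0.08).

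Other TOP mRNAs code mostly for translation factors. Of 25 tested, 9 were lower (36.0%, against 13.4% of all genes tested) and 1 was higher (4.0% against 14.6%), with a median of -0.17. The lower ones included Eef1g (-0.36 ± 0.08), Eif3e (-0.32 ± 0.08) and the noncoding snoRNA host Gas5 (-0.44 ± 0.08), and the higher one was Vim, an intermediate filament gene of non-hepatocytes (0.95 ± 0.21). Of 78 mitochondrial ribosomal protein genes, 14 were lower and 0 higher with a median of -0.15. Their share of lower genes, 17.9%, was near the 13.4% of all genes tested, of which 14.6% were higher. The log2 fold change was below 0 in 64 of the 78. In 67.9% both libraries labelled JMJD1C-LKO lay below both WT libraries, against 33.8% of all genes. The reverse order was seen in 8.97%, against 33.7%.

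Among 24 tested genes of mTOR signalling and TOP mRNA regulation, 6 were lower, 5 higher, and the median was 0.006. These shares were 25.0% and 20.8%, against 13.4% and 14.6% of all genes tested. Ddit4, which restrains mTOR complex 1 under stress, was at 4.05 and 4.22 CPM in WT and at 41.02 and 83.99 CPM in the libraries labelled JMJD1C-LKO (log2 fold change 3.92 ± 0.30, edgeR adjusted p = 5.8e-05). Eif4ebp3, a repressor of the cap-binding protein eIF4E, went from 108 and 112 CPM to 268 and 319 CPM (1.41 ± 0.10), and the leucine sensor Sesn2 from 3.32 and 3.45 CPM to 5.95 and 8.15 CPM (1.06 ± 0.19). Eif4ebp2 and Sesn1 were also higher. The lower genes included Rps6kb1, the S6 kinase (-0.51 ± 0.08), Larp1, which binds TOP motifs (-0.29 ± 0.08), and Eif4e (-0.48 ± 0.14). Of 16 transcription factors linked to ribosomal protein promoters, 5 were lower (Sp1, Sp3, Hcfc1, Gabpb1, Gabpb2) and 0 higher. The lower share was 31.2%, against 13.4% of all genes tested. Myc, Yy1, Gabpa and Usf1 did not pass the test.

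**Figure D3:**
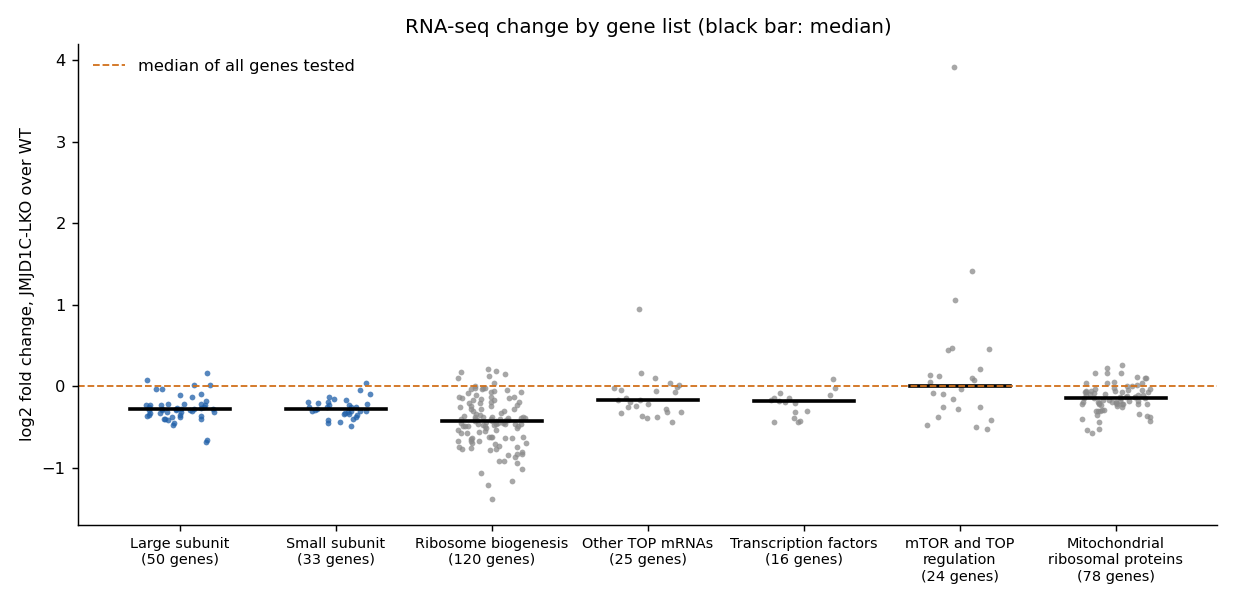
Log2 fold change (libraries labelled JMJD1C-LKO over WT; y axis) of each tested gene in 7 lists (x axis), with a black bar for the median and a dashed line for the median of all genes tested. The medians are -0.28 for both subunits, -0.43 for ribosome biogenesis, -0.17 for other TOP mRNAs, 0.006 for mTOR regulation and -0.15 for mitochondrial ribosomal proteins.

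Genes of other liver cells also differed between these libraries. All 6 Kupffer cell markers were higher in those labelled JMJD1C-LKO, with a summed level of 226 and 233 CPM in WT against 436 and 626 CPM, and 3 of 4 endothelial markers were higher (72.5 and 70.6 against 95.2 and 126 CPM). T cell markers summed to 1.46 to 4.5 CPM with 1 of 3 higher, B and plasma cell markers to 2.61 to 5.53 CPM with 0 of 4, and stellate markers to 152 to 198 CPM with 1 of 4. Cholangiocyte (20.1 to 24.5 CPM) and erythroid markers (560 to 1020 CPM) had 0 called, and of the hepatocyte markers Cps1 was higher. No marker in the table was at 0 in all libraries, and Cela1, the 1 of 5 listed pancreatic genes in the table, was higher (5.30 and 5.12 CPM in WT, 8.13 and 8.18 CPM in the libraries labelled JMJD1C-LKO). The part of these cells in the ribosomal protein values was not tested, and in bulk liver fewer cells of a type and less RNA per cell cannot be told apart.

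Members were also divided by sequence features that the symbols do not use. Of 30 members with a run of at least 7 C or T near the start, 20 were lower, and of 32 with a shorter run, 22 were, with medians of -0.32 and -0.29. Of 34 members with CCGGAA, 25 were lower, and of 28 without, 17 were. The shares were 21 of 30 for members that host a snoRNA gene and 34 of 53 for the others. These are descriptions of the same 4 libraries and no test was made between them.

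Open chromatin at the starts was compared next. A summit of an ATAC-seq peak was counted at a gene when it lay within 1000 bp of any RefSeq start. In the WT fasted livers 27 members (32.1%) and 9 members (10.7%) had a summit, against 12.0% and 5.49% of the 26180 annotated genes. In the WT refed livers 12 (14.3%) and 10 (11.9%) had a summit, against 9.94% and 6.24%. In the livers labelled JMJD1C-LKO refed 3 and 3 had a summit (3.57% each), against 4.06% and 0.886%. The WT fasted livers thus differed from each other by more than either did from the refed livers. In genes outside the members but in the highest decile of WT expression, which held 74 of the members, the shares were 20.6% and 10.5% fasted, 17.4% and 11.5% refed and 6.26% and 1.15% in the livers labelled JMJD1C-LKO. Summit lists were of unequal length, with 5220 and 7632 summits fasted, 5027 and 3119 refed and 1450 and 825 in the livers labelled JMJD1C-LKO, and the depth behind them is unknown. When each list was reduced to its 825 strongest summits, 4 and 3 members remained fasted, 3 and 3 refed, and 0 and 3 in the livers labelled JMJD1C-LKO. The shares of all genes on the reduced lists are not given here, so these counts do not show whether the members stood out.

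Members with a summit in both livers of a group were few. They numbered 8 in WT fasted (9.52% against 4.36% of all genes), 4 in WT refed (4.76% against 4.78%) and 1 in JMJD1C-LKO refed (1.19% against 0.397%). In other genes of the highest decile of WT expression, the shares were 7.49%, 8.63% and 0.382% in the same order. With 2 livers in each group, the member counts were not tested between groups. The fasted genes were Rpl19, Rpl21, Rpl22l1, Rpl27a, Rpl35a, Rps23, Rps27a and Rps29, and the refed genes were Rpl7, Rpl35a, Rps23 and Rps27a.

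Rpl35a, Rps23 and Rps27a had a summit in all 4 WT livers. Rps23, whose protein sits at the decoding centre, had the strongest member summit in 3 of them. Its summits lay 146 and 112 bp before the start in the fasted livers, ranked 213 of 5220 and 293 of 7632, and 153 and 52 bp before it in the refed livers, ranked 669 of 5027 and 282 of 3119. No summit was listed at Rps23 in the livers labelled JMJD1C-LKO, whose lists held only 1450 and 825 summits. In the separate RNA-seq libraries of pooled RNA, its mRNA was at 222 and 228 CPM in those labelled JMJD1C-LKO. It was at 272 and 264 CPM in the WT libraries (log2 fold change -0.25 ± 0.08). Rps27a had summits 65 and 53 bp past the start when fasted, 1 and 52 bp before it when refed, and 19 bp before it in liver 1 of those labelled JMJD1C-LKO. Rpl35a had summits 160, 72, 111 and 55 bp before the nearest start in fasted livers 1 and 2 and refed livers 1 and 2. Its mRNA was lower in the libraries labelled JMJD1C-LKO (169.5 and 163 CPM against 140.3 and 133 CPM).

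Rpl19, Rpl21, Rpl22l1 and Rpl27a had summits in both fasted livers and in refed liver 1. Those of Rpl27a lay 92 and 197 bp before the start and, in the refed liver, 3 bp past it, close to the long pyrimidine run shown above. At Rpl21 the summits lay 152, 107 and 97 bp past the start, and the strongest was that of the refed liver, ranked 577 of 5027. Rpl22l1 kept a summit 52 bp past the start in liver 1 of those labelled JMJD1C-LKO. Rpl7 had summits further from its start, at -452 bp from the start in fasted liver 1 and at -725 and -450 bp in the refed WT livers, and at -615 bp in liver 2 of those labelled JMJD1C-LKO. Rps29 was the member with a summit in both livers labelled JMJD1C-LKO, 111 and 215 bp before the start and ranked 1366 of 1450 and 522 of 825. It had summits 162 and 148 bp before the start in the fasted livers and none in the refed WT livers. Across all member summits, the median position was 100 and 83 bp before the start in the fasted and 49 and 65.5 bp before it in the refed livers.

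**Figure D4:**
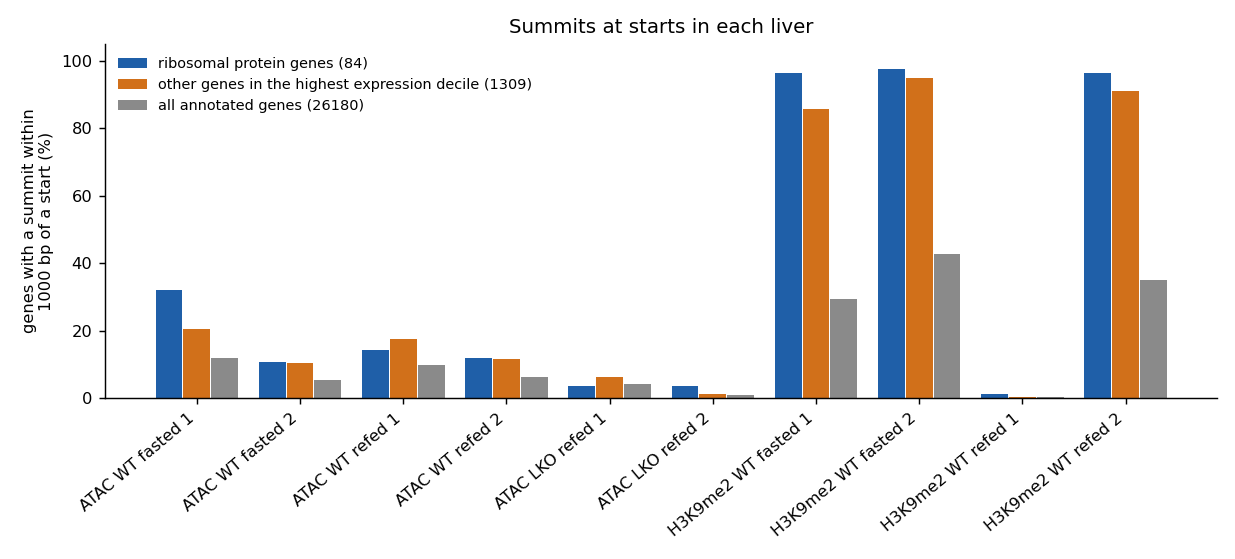
Share of genes with a summit within 1000 bp of a RefSeq start (y axis, percent) in each liver (x axis), for the 84 ribosomal protein genes, for 1309 other genes in the highest decile of WT expression and for all 26180 annotated genes. H3K9me2 summits lie at over 96% of the members in 3 livers and at 1.19% in refed liver 1, and ATAC-seq summits at 3.57% to 32.1%.

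H3K9me2 was found at almost every ribosomal protein gene. In the WT fasted livers 81 members (96.4%) and 82 members (97.6%) had a summit within 1000 bp of a start, against 29.3% and 42.7% of all annotated genes. In WT refed liver 2 the number was 81 (96.4% against 35.1%). WT refed liver 1 stood apart, with 1 member (1.19% against 0.233%), and its list held 1297 summits, 65 of them near any start, while the other 3 lists held 7690, 13456 and 9929. The count for both livers was therefore 81 when fasted (96.4% against 29.1%) and 1 when refed (1.19% against 0.042%), and the refed value rests on refed liver 1. Large and small subunit genes had like shares, with 49 of 51 and 32 of 33 in both fasted livers.

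The members without a summit were Rpl3l and Rpl32l, which were barely expressed, and Rps4l had one in fasted liver 2 only. All 55 members that were lower in the libraries labelled JMJD1C-LKO had a summit in both fasted livers, and so did 26 of the 28 that did not pass the test. The share was also high in other genes of the highest expression decile: 85.7% and 95.0% in the fasted livers and 91.1% in refed liver 2, while all 74 members in that decile had a summit in these 3 livers. Mitochondrial ribosomal protein genes had a summit in both fasted livers at 64 of 78 and ribosome biogenesis genes at 90 of 120. In fasted liver 2 alone the counts were 78 of 78 and 120 of 120. In refed liver 2 they were 75 (96.2%) and 113 (94.2%), close to the 96.4% of the members.

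The single member listed in refed liver 1 was Rpl34, with a summit 168 bp past the start, ranked 581 of 1297. The same gene had summits 273 and 247 bp past the start in the fasted livers and 261 bp past it in refed liver 2. The strongest member summit of fasted liver 1 and of refed liver 2 was that of Rpl17, a protein of the exit tunnel, ranked 36 of 7690 and 6 of 9929. When each list was reduced to its 1297 strongest summits, 29 and 41 members remained in the fasted livers, 1 in refed liver 1 and 39 in refed liver 2. Shares of all genes on these shortened lists are not given here, so the counts do not show whether the members stood out on them.

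Position set the H3K9me2 summits apart from the ATAC-seq summits. The median H3K9me2 summit of the members lay 277 and 268 bp past the start in the fasted livers and 278 bp past it in refed liver 2, and the medians over all summits near starts were 267, 226 and 267 bp past it. Of 90, 94 and 99 member summits, 79, 78 and 80 lay past the start. The strongest summit of a member lay at nearly the same place in each liver, with a median distance of 57 bp between the fasted livers and of 43 and 46 bp between them and refed liver 2. At Rps23 the H3K9me2 summits lay 168, 161 and 232 bp past the start in these 3 livers, on the other side of the start from its ATAC-seq summits. The count depended on this position: with a window from 1000 bp before to 100 bp past the start, 6 members had a summit in both fasted livers and 0 in both refed livers. The medians over all summits near starts, given above, also lay past this limit. The share of all genes under this window is not given here, so the fall is not shown to be particular to the members.

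**Figure D5:**
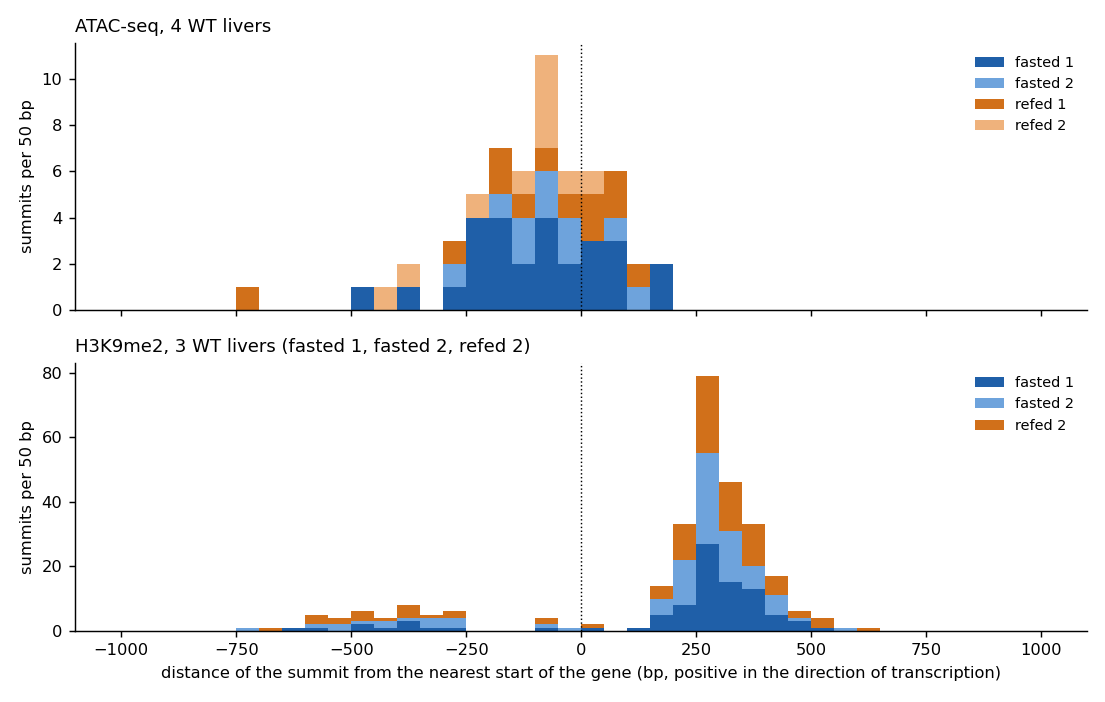
Number of member summits per 50 bp (y axis) by distance from the nearest start of the gene (x axis, bp, positive in the direction of transcription), for ATAC-seq in 4 WT livers above and H3K9me2 in 3 WT livers below, stacked by liver. ATAC-seq summits centre just before the start (medians 49 to 100 bp before it) and H3K9me2 summits past it (medians 268 to 278 bp).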

How the data were processed

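RNA-seq values were estimated counts per RefSeq transcript as deposited by the authors, of which 65.8% had a fractional part. The submitters' processing notes name HISAT2 and Partek, and the counting method is not given in the sources used here. A further deposited table with the authors' own comparison (fold changes and p-values) was not used. For ATAC-seq and H3K9me2 ChIP-seq the authors called peaks in each liver with MACS2 (q-value cutoff 0.05, enrichment of 2 and 2.5-fold, reads on mm10) and deposited summits with the −log10 of the q-value. Widths and reads were not used here, so depth is unknown.

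Counts were summed per gene, rounded, filtered with filterByExpr and tested with edgeR 4.0.16 in R 4.3.3 (quasi-likelihood F test, TMM factors 0.961 to 1.018, no block, Benjamini-Hochberg over 14151 genes, threshold 0.05). Fits were also run on counts simulated with the common dispersion of these libraries (0.0083) for every gene. Because that spread was fitted from the same pools, the simulation cannot show how reliable the calls are. SE is |log2 fold change| over the root of F. Libraries are pools, so p-values measure the spread between pools. DESeq2 1.42.0, RLE, total count scaling, other filters, the replicate block, single libraries left out and transcripts in place of genes were alternatives. Same-numbered libraries did not deviate together (correlation -0.02). Level per kb is the TMM-scaled CPM over RefSeq transcript length. Starts, promoters and coordinates come from RefSeq on GRCm38.p6, the build of mm10, and coordinates are 1-based.

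The members and all lists were chosen with earlier results of these data known. Members named with values were the 8 lower and 8 higher with the smallest p past the threshold, the 3 highest and 3 lowest per kb, paralog pairs in the table, members with an ATAC-seq or H3K9me2 summit in both livers of a group, and Rplp0, Rplp1, Rplp2, Rpl5, Rpl11, Rps6 and Rps27a. The H3K9me2 part of this rule covers 81 members, which are given as counts. No member was higher past the threshold. Rpl4, the members of role groups and the genes of other lists that are named were chosen after their values were seen. Values of some members and list genes are not reported here, and counts and medians include them.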

Additional observations from a re-analysis of the deposited data

How the results depend on the processing

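All 11 gene-level fits gave 0 members higher, and so did the test of transcripts. The count of lower members was 55, with 53 to 64 under DESeq2, RLE, total count scaling, both other filters and the replicate block (53), which changed the call of none of the 39 genes (Jmjd1c among them) that the naming rule picked and that were fitted. Transcripts gave 8. Leaving out a library gave 3 to 58 members, with 2 WT libraries against 1 or 1 against 2 and the lone library assumed to vary like the others. The count of lower biogenesis genes, an alternative chosen after seeing the data, was 82 and ranged from 33 to 84 without single libraries. The large subunit median moved to -0.323 with total count scaling, to -0.263 with a filter of 1 CPM in 2 libraries and to between -0.320 and -0.258 without single libraries, and the small subunit median to -0.321 and -0.265 under the first 2 settings. Total count scaling shifted the median of all genes to -0.032 and the whole table to 2268 lower and 1717 higher.

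Values that changed sign belonged to members that did not pass the test. With total count scaling Rplp2 was at -0.017 and Rps4l at -0.002. Without single libraries Rpl22l1 ranged from -0.028 to 0.381, Rpl30 from -0.337 to 0.098, Rplp0 from -0.104 to 0.024, Rplp2 from -0.060 to 0.087, Rps4l from -0.033 to 0.103 and Rps4x from -0.204 to 0.008.

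Counts of members with a summit depended on the livers and the list lengths. With a summit in at least 1 of the 2 livers, ATAC-seq gave 28 fasted, 18 refed and 5 in the livers labelled JMJD1C-LKO, and H3K9me2 gave 81 refed. With a single liver the counts were 9 to 27, 10 to 12, 3 to 3 and 1 to 81 in the same order. A score of at least 5 left 5 fasted and 0 labelled JMJD1C-LKO for ATAC-seq and 0 refed for H3K9me2. With equal numbers of the strongest summits 2 fasted, 1 refed and 0 labelled JMJD1C-LKO remained for ATAC-seq, and 21 fasted for H3K9me2. A window from 1000 bp before to 100 bp past the start gave 6 fasted and 0 refed for H3K9me2. For the score, the equal numbers of summits and the window, shares of all genes are not given here, so these counts show nothing particular to the members. The cause of these changes was not tested, and the depth behind the summits is unknown.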
